A study of Homo sapiens with 6 samples.

Results

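Glucose use in SKOV3, an established human ovarian carcinoma line, was followed at the level of transcripts through 36 genes of glucose uptake, glycolysis, the fate of pyruvate and the response to low oxygen. They are the rows of the deposited table that carry 1 of 36 listed symbols, a list drawn up because fenbendazole is reported to affect glucose use, and all 36 symbols were found among 61552 genes. In 3 libraries the cells had received fenbendazole, a benzimidazole that binds tubulin and is used against parasitic worms, at 1 µM over 48 h, and 3 libraries came from cells given only DMSO, its solvent. Poly(A) RNA was sequenced. Each library carries the number of its label: 10, 11 and 12 for DMSO, and 7, 8 and 9 for fenbendazole. All cells were grown at 5% CO2, and no glucose concentration and no measure of lactate, glucose use or oxygen was analysed here. Since separate cultures are not stated, p-values describe the spread between these libraries, and that spread may be technical.

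Glucose enters cells through facilitative transporters and is trapped by hexokinase, which phosphorylates it. Phosphofructokinase commits it to glycolysis and is driven by fructose-2,6-bisphosphate, which the PFKFB enzymes make and remove. Pyruvate is then either reduced to lactate and exported or passed to mitochondria by pyruvate dehydrogenase, which the PDK kinases switch off. When oxygen is low, HIF-1 raises many of these genes together, and in carcinoma lines the pathway is often active in air as well.

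HIF-1 binds elements whose core letters are ACGTG or GCGTG. The promoter stretches of LDHA, BNIP3, CA9 and TXNIP are shown because these genes stand for the lactate step, the response to low oxygen and the brake on uptake, and their stretches hold different numbers of these letters. Each line holds the 250 bases before an annotated RefSeq start (GRCh38.p14), 5′ to 3′ in the direction of the gene, with capitals marking ACGTG or GCGTG on either strand. The stretch of LDHA lies at chr11:18394313-18394562 on the plus strand, that of BNIP3 at chr10:131981924-131982173 on the minus strand, that of CA9 at chr9:35673678-35673927 on the plus strand and that of TXNIP at chr1:145996580-145996829 on the minus strand.
LDHA: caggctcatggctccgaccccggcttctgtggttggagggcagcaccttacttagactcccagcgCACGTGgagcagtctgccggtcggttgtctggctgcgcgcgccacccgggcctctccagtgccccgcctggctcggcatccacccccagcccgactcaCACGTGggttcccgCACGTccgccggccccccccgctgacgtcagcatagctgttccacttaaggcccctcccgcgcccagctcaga
BNIP3: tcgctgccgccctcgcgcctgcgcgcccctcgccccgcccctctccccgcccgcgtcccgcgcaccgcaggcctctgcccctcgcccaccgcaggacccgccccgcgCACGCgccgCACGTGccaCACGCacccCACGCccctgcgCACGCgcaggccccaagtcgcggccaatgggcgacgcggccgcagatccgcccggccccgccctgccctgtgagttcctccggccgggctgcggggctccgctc
CA9: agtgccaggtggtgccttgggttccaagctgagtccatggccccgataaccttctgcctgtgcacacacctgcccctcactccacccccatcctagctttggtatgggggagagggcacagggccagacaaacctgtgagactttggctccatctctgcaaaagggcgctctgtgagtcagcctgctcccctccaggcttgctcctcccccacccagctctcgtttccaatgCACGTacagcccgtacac
TXNIP: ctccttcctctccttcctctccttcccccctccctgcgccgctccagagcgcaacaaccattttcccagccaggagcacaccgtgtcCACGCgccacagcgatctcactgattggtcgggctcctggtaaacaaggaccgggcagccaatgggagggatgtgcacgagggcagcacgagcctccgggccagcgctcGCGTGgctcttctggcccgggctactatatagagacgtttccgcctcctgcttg
The stretch of LDHA held 5 matches, that of BNIP3 6, that of CA9 1 and that of TXNIP 2, where the palindrome CACGTG counts once on each strand. RefSeq windows of 300 bases, 250 before to 50 after a start, were matched by symbol for 32 members, 64 windows in all. Of these windows 41 held ACGTG or GCGTG on either strand, 64.1%, against 48.4% of all 35116 windows. ACGTG was in 39.1% of the windows of members and 21.4% of all, GCGTG in 40.6% and 36.5%, and CACGTG, which contains ACGTG, in 12.5% and 7.26%. Windows of one gene can overlap, and a match describes letters, not a bound site.

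The pathway was expressed at every step, and none of its genes passed the test for a difference between fenbendazole and DMSO with all 6 libraries. Of the 36 genes 35 passed the filter on low counts, and 0 of these 35 passed a Benjamini-Hochberg adjusted p of 0.05 in edgeR's quasi-likelihood test over 17363 genes, of which 700 passed, 4.03%. At an unadjusted p under 0.05 stood 8 of 35, against 21.3% of all tested genes. DESeq2 called 1 of 35, PGM1, against 11.3% of all genes. The median log2 fold change of the 35 was -0.17, against -0.06 over all tested genes, and 24 of 35 were below 0. In bulk RNA, fewer cells with a transcript and less of it per cell cannot be told apart. The 95% interval of the log2 fold change lay within a 2-fold change in either direction for 26 of the 35 genes and within 1.5-fold for 16.

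Total counts ran from 13170775 to 22128930 per library, and the 36 genes took 1.61% to 1.82% of counts in 5 libraries and 2.22% in DMSO 11. DMSO 11 stood apart: over log2 CPM (counts per library size, which was adjusted by TMM and brought to one scale) its correlation with the other 5 libraries was 0.919 to 0.948, against 0.960 to 0.983 among the others. It held the highest or the lowest of the 6 values for 11650 of 17363 genes and for 30 of the 35 members. Results are therefore given with and without it. A fit without the library farthest from the rest can give p-values that are too small, since part of the spread among controls is gone. Of 10 markers of SKOV3 and carcinoma, 8 had a mean of at least 1 FPKM (the authors' length-scaled level) in both groups, and WT1 and MUC16 were below it. Leukocyte markers summed to at most 0.830 FPKM in a library. Fibroblast markers summed to 9.37 to 14.99 FPKM in DMSO and 10.46 to 11.003 with fenbendazole. Of these 4 markers 2, LUM and COL1A1, had a mean of at least 1 FPKM in both groups. Endothelial markers summed to 1.32 to 2.398 FPKM in DMSO and 1.64 to 1.99 with fenbendazole. Of these 3 markers 1, PECAM1, reached that mean in both groups. The summed carcinoma markers were at 2367 to 4410 FPKM in DMSO and 1355 to 1519 with fenbendazole. ERBB2 (1618 to 3408 against 836 to 934 FPKM) and CD24 (287 to 340.1 against 126 to 129.6) made up most of this sum, and with MUC1 they were the markers called lower with all 6 libraries. The keratins KRT8 (0.976-fold), KRT18 (0.817-fold) and KRT19 (0.689-fold), EPCAM (0.926-fold) and PAX8 (0.764-fold) were not called in that fit. Without DMSO 11 PAX8 was called lower (log2 fold change -0.20, adjusted p = 0.0439), and the keratins and EPCAM were not called. The part of these markers in the results was not tested.

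**Figure D1:**
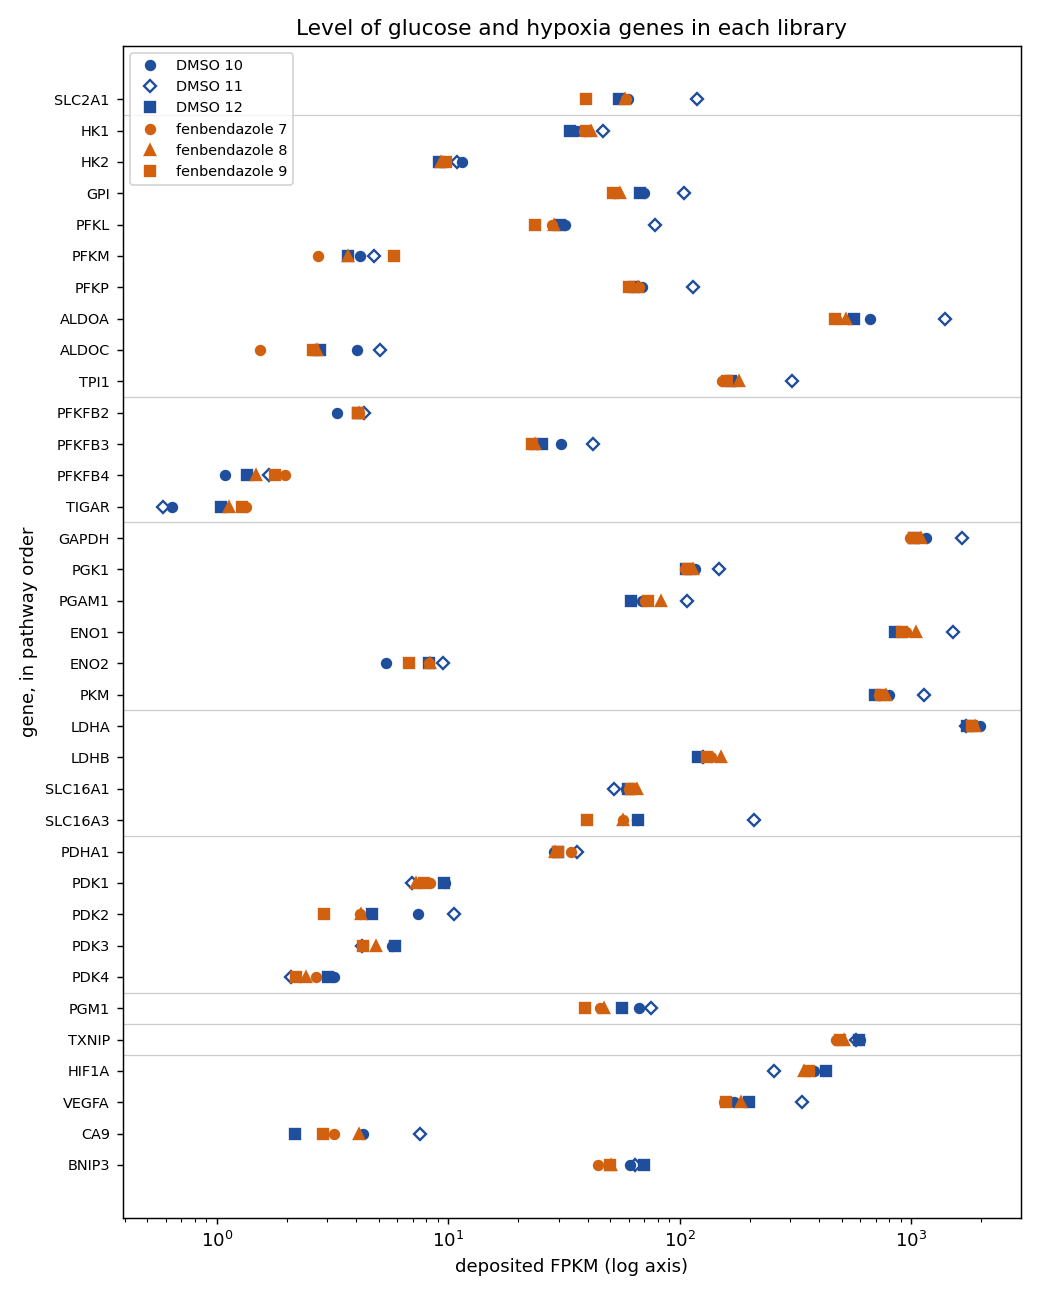
Deposited FPKM (log axis) of 35 genes in pathway order, with points for the 3 DMSO and the 3 fenbendazole libraries. SLC2A3, listed at 0 in 2 libraries, is left out. LDHA stands highest, with a mean of 1830 FPKM over the 6 libraries, and TIGAR lowest, with 1.003.

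Levels differed widely between genes per length of transcript. LDHA, the subunit of lactate dehydrogenase that favours lactate, was highest at 1806 ± 144 FPKM in DMSO and 1854 ± 27.7 with fenbendazole (SD, n = 3 each, as for all levels below). GAPDH, which oxidises the triose phosphate, was at 1276 ± 329.6 and 1037 ± 57.6 FPKM, and the enolase ENO1 at 1092 ± 360.1 and 968 ± 71.8. The pyruvate kinase PKM was at 876 ± 229 and 748 ± 27.7 FPKM, and the aldolase ALDOA at 875 ± 453 and 487 ± 30.1. The first 4 places were held in both groups by LDHA, GAPDH, ENO1 and PKM, in that order, although in DMSO the SDs of GAPDH, ENO1 and PKM reached into one another. The entry steps stood lower, with SLC2A1 at 77.3 ± 35.4 and 51.8 ± 10.9 FPKM, HK1 at 38.6 ± 6.99 and 39.6 ± 1.41, and HK2 at 10.4 ± 1.24 and 9.49 ± 0.224.

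Of the carrier genes SLC2A1 and SLC2A3, SLC2A1 was expressed and SLC2A3 was nearly absent. SLC2A1 encodes GLUT1, the basal glucose transporter (ENSG00000117394, chromosome 1, 42925353 to 42958893, GRCh38). Its level was 197, 345 and 168 CPM in DMSO and 189, 187 and 156 CPM with fenbendazole, in the order of library numbers. DMSO 11 lay above every other library, and the other 5 overlapped. The log2 fold change was -0.42 ± 0.265 (SE), with a 95% interval from -1.03 to 0.20 (adjusted p = 0.396), and without DMSO 11 it was -0.03, from -0.25 to 0.18 (adjusted p = 0.841). SLC2A3, which encodes the high-affinity carrier GLUT3, did not pass the filter: its counts were 0, 8 and 0 under DMSO, and 2, 5 and 16 under fenbendazole. Annotated copies of SLC2A3 held 31 counts and the gene itself 31, so these few counts are uncertain.

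TXNIP encodes an arrestin-like protein that lowers glucose uptake by taking GLUT1 from the membrane, and its transcription responds to glucose. It was at 1981, 1763 and 1927 CPM in DMSO and 1590, 1715 and 1696 CPM with fenbendazole, and each DMSO library stood above each fenbendazole library. The log2 fold change was -0.18 ± 0.109, from -0.44 to 0.07 (adjusted p = 0.370), and -0.22 ± 0.0555 without DMSO 11, where it passed (adjusted p = 0.0112).

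**Figure D2:**
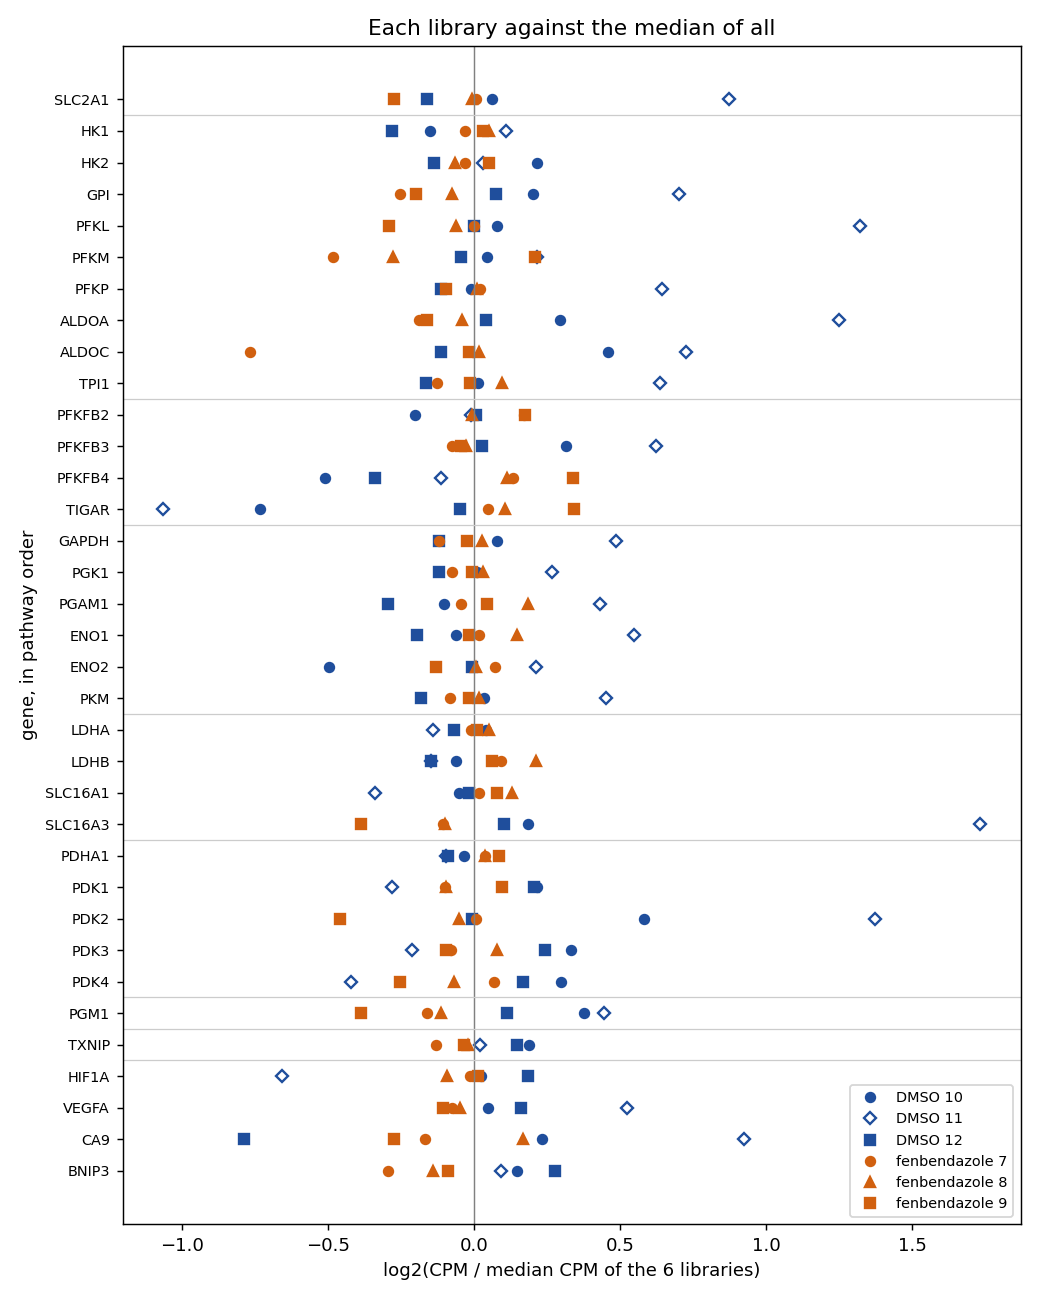
Log2 ratio of each library's CPM to the median of the 6 libraries, for 35 genes in pathway order, by group, with DMSO 11 marked. DMSO 11 lies far above the other libraries for SLC16A3, PFKL and ALDOA and below them for HIF1A, while the other 5 libraries lie closer together.

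Of the hexokinases and the enzymes down to triose phosphate, HK1 was higher, and GPI and ALDOA were lower, in the fit without DMSO 11. HK1, the hexokinase of most tissues, was at 148, 177 and 135 CPM in DMSO and 161, 170.4 and 168 CPM with fenbendazole, values that overlap. Its log2 fold change was 0.12 ± 0.136 (adjusted p = 0.651) and 0.24 ± 0.0693 without DMSO 11 (adjusted p = 0.0240). HK2, the inducible hexokinase of many tumours, was at 73.4, 64.6 and 57.6 CPM in DMSO and 61.9, 60.4 and 65.5 CPM with fenbendazole, again with overlap. HK2 stood at -0.06 ± 0.139 with a 95% interval from -0.38 to 0.26 (adjusted p = 0.831), and without DMSO 11 the interval ran from -0.28 to 0.17.

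GPI turns glucose-6-phosphate into fructose-6-phosphate (ENSG00000105220, chromosome 19, 34359480 to 34402413). It was at 303, 429.6 and 278 CPM in DMSO and 221, 250.4 and 229.7 CPM with fenbendazole, so that the groups did not overlap and DMSO 11 was highest. GPI stood at -0.53 ± 0.180 (adjusted p = 0.154) and -0.31 ± 0.0705 without DMSO 11 (adjusted p = 0.00647). ALDOA, which splits fructose-1,6-bisphosphate, was at 1124, 2179 and 943 CPM in DMSO and 805, 891 and 820.4 CPM with fenbendazole, also without overlap and with DMSO 11 far above the rest. The log2 fold change of ALDOA was -0.76 ± 0.296 (adjusted p = 0.202) and -0.29 ± 0.0755 without DMSO 11 (adjusted p = 0.0150).

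PFKL, the liver-type phosphofructokinase, was at 109, 258 and 103 CPM in DMSO and 103, 99.0 and 84.5 CPM with fenbendazole, and its log2 fold change went from -0.72 to -0.15 without DMSO 11, the highest library. PFKP, the platelet type, stood at -0.23 and 0.05 in the same fits, and PFKM, the muscle type, at -0.23 and -0.14. TPI1, which interconverts the triose phosphates, stood at -0.22 and 0.07, and ALDOC, the brain aldolase, at -0.62 and -0.41. None of PFKL, PFKP, PFKM, TPI1 and ALDOC passed in either fit. A gene without a symbol, on the same strand over ALDOC, held 13.4% of the counts of ALDOC. SENP1, on the opposite strand over PFKM, held 381% of the counts of PFKM, and since no source used here says that strand was kept in counting, reads at PFKM are uncertain.

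The genes that set fructose-2,6-bisphosphate leaned in different directions, and none passed in the fits given here, with and without DMSO 11. Calls in other fits are given below. PFKFB3, the isoform with the strongest kinase activity, was at 151, 186 and 123 CPM in DMSO and 115, 119 and 117 CPM with fenbendazole, without overlap. Its log2 fold changes with and without DMSO 11 were -0.39 and -0.22 (adjusted p = 0.226 and 0.0742). PFKFB4 was at 3.57, 4.70 and 4.02 CPM in DMSO and 5.56, 5.48 and 6.42 CPM with fenbendazole, also without overlap but with fenbendazole higher. It stood at 0.51 and 0.63 (adjusted p = 0.255 and 0.0882). TIGAR, a p53 target that removes fructose-2,6-bisphosphate, was at 6.02, 4.78 and 9.67 CPM in DMSO and 10.3, 10.8 and 12.7 CPM with fenbendazole, and each fenbendazole library stood above each DMSO library. It stood at 0.73 and 0.54 (adjusted p = 0.209 and 0.104), the highest value of the 35 genes with all libraries. PFKFB2, the heart isoform, stood at 0.18 and 0.22 (adjusted p = 0.523 and 0.239). YOD1, on the opposite strand over PFKFB2, held 132% of the counts of PFKFB2, and UCN2, on the same strand, 28.3% of those of PFKFB4. YOD1 stood at 0.97 and 0.73 in the same fits (adjusted p = 0.0964 and 0.000955), so reads at PFKFB2 are uncertain.

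Shares of a gene within its family were taken from FPKM. Of the summed FPKM of PFKFB2, PFKFB3 and PFKFB4, PFKFB3 made up 87.5%, 87.6% and 82.4% under DMSO and 79.0%, 81.0% and 79.7% under fenbendazole. PFKFB2 made up 10.5% ± 2.37 and 14.1% ± 0.109, and PFKFB4 3.65% ± 0.664 and 5.999% ± 0.906. The groups overlapped for none of these PFKFB shares, which rest in part on the uncertain reads at PFKFB2. Of the lactate carriers SLC16A1 and SLC16A3, SLC16A1 made up 47.1%, 19.96% and 47.7% under DMSO and 51.6%, 53.5% and 60.8% under fenbendazole, without overlap and with DMSO 11 far below the other controls. PFKP made up 62.9% ± 4.24 of the phosphofructokinases in DMSO and 67.6% ± 0.711 with fenbendazole, and PFKL 33.7% ± 5.09 and 28.1% ± 1.42, both without overlap. HK1 made up 78.5% ± 2.63 of HK1 and HK2 in DMSO and 80.7% ± 0.774 with fenbendazole, with overlap. Over 22 shares in 9 families the exact two-sided permutation p was at least 0.1, the smallest that 3 against 3 libraries allow, and the smallest adjusted p was 0.314, so no share could pass 0.05.

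**Figure D3:**
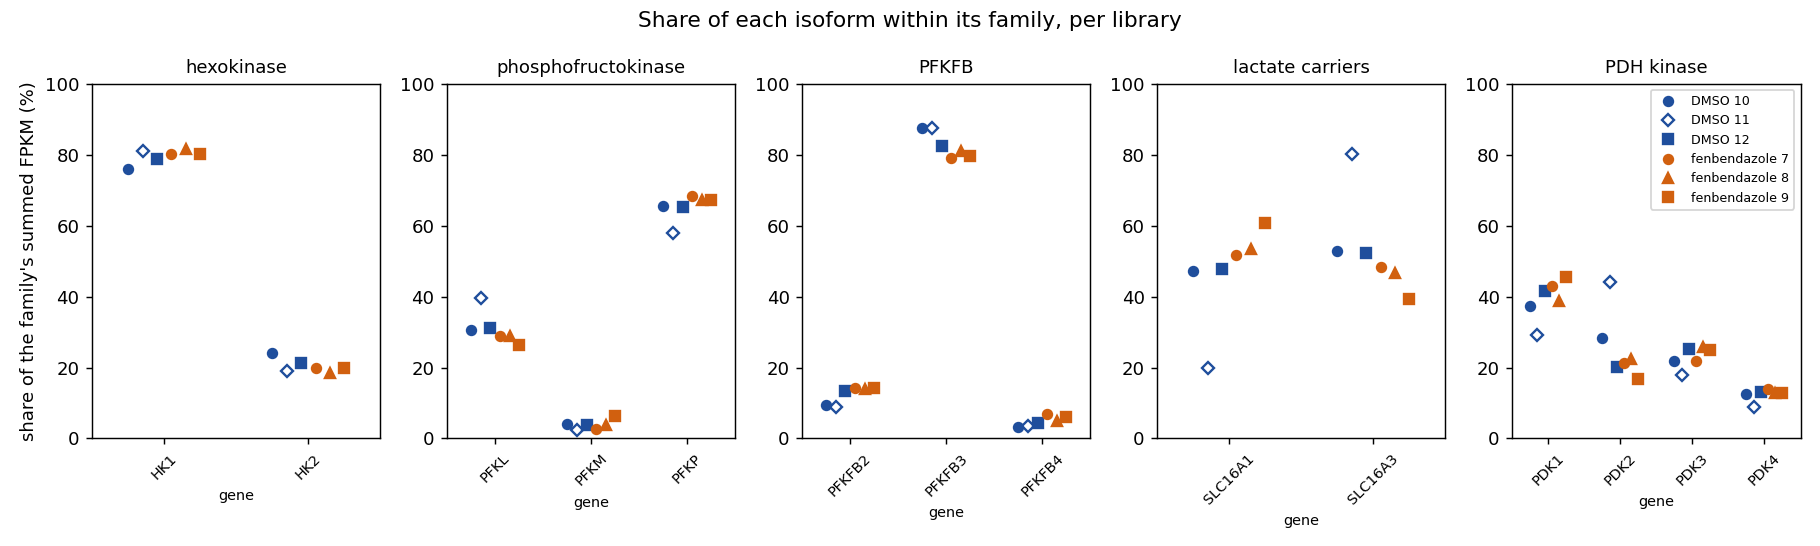
Share of each gene in the summed FPKM of its family (%), one point per library, by group. PFKFB3 lies at 82.4% to 87.6% in DMSO and 79.0% to 81.0% with fenbendazole, and the lactate carriers of DMSO 11 lie far from those of the other libraries.

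In the lower pathway PGAM1 was the gene that passed without DMSO 11, and none passed with it. GAPDH was at 1725, 2285 and 1503 CPM in DMSO and 1503, 1662 and 1604 CPM with fenbendazole, where DMSO 11 was highest and the groups overlapped. Its log2 fold change was -0.21 ± 0.167, from -0.60 to 0.18 (adjusted p = 0.498), and -0.01, from -0.16 to 0.13, without DMSO 11 (adjusted p = 0.910). The intervals without DMSO 11 ran from -0.09 to 0.18 for PGK1, the first step that yields ATP, and from -0.09 to 0.19 for PKM. PGAM1, which moves the phosphate of 3-phosphoglycerate, was at 142, 205 and 124 CPM in DMSO and 148, 173 and 157 CPM with fenbendazole. It stood at 0.02 ± 0.198 (adjusted p = 0.963) and at 0.27 ± 0.0838 without DMSO 11 (adjusted p = 0.0357). ENO1 stood at 0.19 in that fit (adjusted p = 0.0539) and ENO2, the neuronal enolase, at 0.23 (adjusted p = 0.356). LRRC23, on the same strand over ENO2, held 23.8% of the counts of ENO2. Annotated copies of PGAM1 held 1.43% of its counts and those of GAPDH 0.234%.

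At the lactate step LDHB was higher and the exporter SLC16A3 lower without DMSO 11, while LDHA gave no call. LDHA was at 3404, 3004 and 3153 CPM in DMSO and 3284, 3427 and 3336 CPM with fenbendazole, with overlap. Its log2 fold change was 0.07 ± 0.107, from -0.18 to 0.32 (adjusted p = 0.728), and 0.04, from -0.08 to 0.16, without DMSO 11. LDHB, the subunit that favours pyruvate, was at 187, 176 and 176 CPM in DMSO and 208, 226 and 203 CPM with fenbendazole, and the groups did not overlap. It stood at 0.24 ± 0.112 (adjusted p = 0.264) and at 0.23 ± 0.0696 without DMSO 11 (adjusted p = 0.0283).

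SLC16A3 encodes MCT4, which exports lactate (ENSG00000141526, chromosome 17, 82217934 to 82261129). It was at 206, 602 and 195 CPM in DMSO and 169, 169 and 139 CPM with fenbendazole, without overlap and with DMSO 11 above all others by far. The log2 fold change was -1.07 ± 0.425, the lowest of the 35 genes (adjusted p = 0.205), and -0.33 ± 0.0865 without DMSO 11 (adjusted p = 0.0165). CSNK1D, on the opposite strand over SLC16A3, held 67.2% of its counts and stood at -0.25 and 0.02 in the same fits, past the threshold in neither. SLC16A1, which encodes MCT1, a carrier of both directions, was at 248.8, 204 and 255 CPM in DMSO and 261, 282 and 272 CPM with fenbendazole, without overlap, and stood at 0.21 and 0.12 (adjusted p = 0.389 and 0.211).

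At the entry to mitochondria PDK1 and PDK3 were lower without DMSO 11, PDK1 close to the threshold. PDHA1, a catalytic subunit of pyruvate dehydrogenase, was at 85.0, 81.5 and 81.8 CPM in DMSO and 89.4, 89.3 and 92.5 CPM with fenbendazole, without overlap, and stood at 0.13 and 0.12 (adjusted p = 0.539 and 0.279). PDK1, a HIF-1 target, was at 124, 87.8 and 123 CPM in DMSO and 99.6, 99.9 and 114 CPM with fenbendazole, so that DMSO 11 lay below and the other controls above all treated libraries. PDK1 stood at -0.09 ± 0.166 (adjusted p = 0.772) and -0.23 ± 0.0785 without DMSO 11 (adjusted p = 0.0487). PDK3 was at 79.4, 54.5 and 74.6 CPM in DMSO and 59.8, 66.5 and 59.1 CPM with fenbendazole, with the controls in the same arrangement. It stood at -0.17 ± 0.1703 (adjusted p = 0.596) and at -0.31 ± 0.0880 without DMSO 11 (adjusted p = 0.0215). PDK2 was at 19.0, 32.9 and 12.6 CPM in DMSO and 12.8, 12.3 and 9.25 CPM with fenbendazole, with overlap, and stood at -0.92 ± 0.350 (adjusted p = 0.194) and at -0.47 ± 0.205 without DMSO 11 (adjusted p = 0.124). SAMD14, on the opposite strand over PDK2, held 10.9% of the counts of PDK2. PDK4, the isoform raised in fasting, stood at -0.12 and -0.31 (adjusted p = 0.795 and 0.246).

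PGM1 had the smallest p of the members with all libraries. It interconverts glucose-1-phosphate and glucose-6-phosphate and so ties glycogen to glycolysis (ENSG00000079739, chromosome 1, 63593411 to 63660245). Its level was 178, 187 and 149 CPM in DMSO and 123, 127 and 105 CPM with fenbendazole, without overlap. The log2 fold change was -0.53 ± 0.142, from -0.87 to -0.20 (adjusted p = 0.0875), and -0.46 ± 0.0972 without DMSO 11 (adjusted p = 0.00558). DESeq2 called it with all 6 libraries (adjusted p = 0.0201). ITGB3BP lies on the opposite strand over part of PGM1, held 20.2% of its counts and stood in the other direction, at 1.10 ± 0.371 (adjusted p = 0.153) and 0.75 without DMSO 11 (adjusted p = 0.000705).

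Of HIF1A, BNIP3, VEGFA and CA9, the genes tied most closely to low oxygen, BNIP3 was lower without DMSO 11. BNIP3, a mitophagy receptor induced by HIF-1, was at 114, 109.7 and 125 CPM in DMSO and 83.9, 93.4 and 96.8 CPM with fenbendazole, and the groups did not overlap. BNIP3 stood at -0.35 ± 0.124 (adjusted p = 0.172) and -0.38 ± 0.0827 without DMSO 11 (adjusted p = 0.00484). Annotated copies of BNIP3 held 6.75% of its counts, so its reads may be shared. By library the copies held 5.82%, 4.24% and 6.08% in DMSO and 7.18%, 9.51% and 9.92% with fenbendazole, without overlap. The part of the copies in the lower counts of BNIP3 was not tested. HIF1A, the oxygen-regulated subunit of HIF-1, was at 1669, 1043 and 1866 CPM in DMSO and 1628, 1539 and 1657 CPM with fenbendazole, with DMSO 11 far below the others. It stood at 0.08 ± 0.209, from -0.41 to 0.56 (adjusted p = 0.857), and at -0.13, from -0.26 to 0.00, without that library (adjusted p = 0.164).

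VEGFA, the angiogenic factor, was at 669, 931 and 723 CPM in DMSO and 614, 626 and 601 CPM with fenbendazole, without overlap. It stood at -0.34 ± 0.147 (adjusted p = 0.242) and at -0.17 ± 0.0592 without DMSO 11, just short of the threshold (adjusted p = 0.05002). CA9, the membrane carbonic anhydrase often used as a marker of hypoxia, was low, at 7.69, 12.4 and 3.79 CPM in DMSO and 5.83, 7.36 and 5.42 CPM with fenbendazole, with overlap. Its log2 fold change of -0.37 had an interval from -1.32 to 0.58 (adjusted p = 0.627), and that of 0.10 without DMSO 11 one from -0.53 to 0.73. ARHGEF39, on the opposite strand over CA9, held 138% of its counts and rose by 1.29 ± 0.197 on the log2 scale (adjusted p = 0.0133), so reads at CA9 are uncertain.

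**Figure D4:**
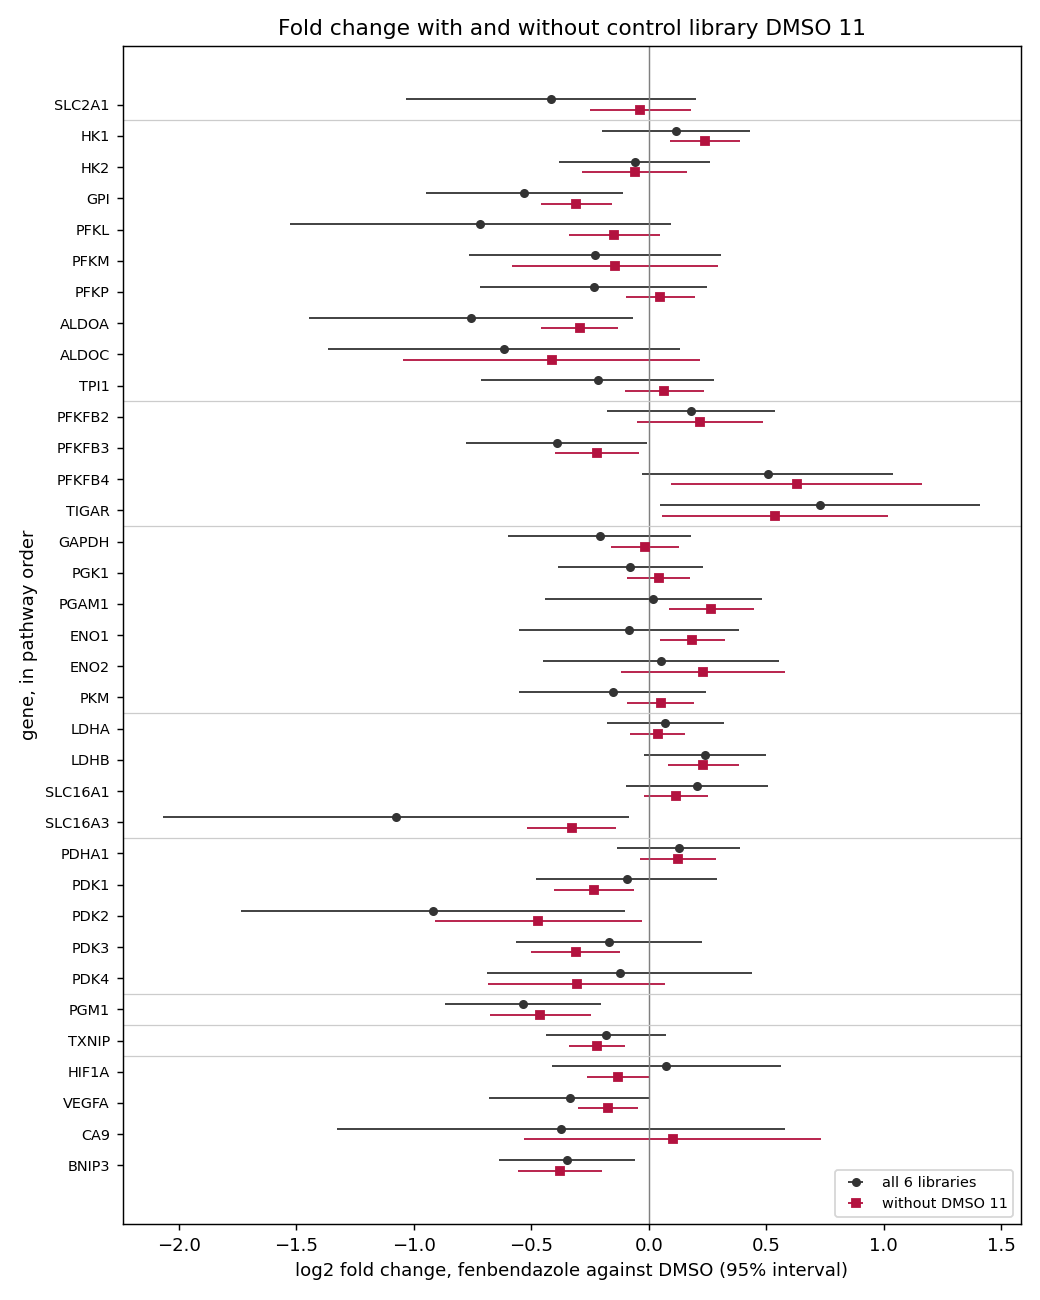
Log2 fold change of fenbendazole against DMSO with its 95% interval for 35 genes in pathway order, from all 6 libraries (circles) and without DMSO 11 (squares). Standard errors were smaller without DMSO 11 for 34 of 35 genes, and SLC16A3 moved from -1.07 to -0.33.

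Without DMSO 11, 11 of 35 members passed, 31.4%, against 22.3% of all genes in that fit. Of these, 3 were higher with fenbendazole, HK1, PGAM1 and LDHB, where 13.1% of all genes were called higher. The 8 lower ones were GPI, ALDOA, SLC16A3, PDK1, PDK3, PGM1, TXNIP and BNIP3, where 9.23% of all genes were called lower. Each of these 11 fitted differences was smaller than 1.5-fold. The median log2 fold change of the 35 was then -0.03, against -0.01 over all genes. Leaving out DMSO 10, DMSO 12, fenbendazole 7, 8 or 9 gave 0 of 35 calls each, where 1.57%, 2.88%, 0.807%, 0.831% and 0.838% of all genes passed. In CPM of all 6 libraries the groups did not overlap for 5 genes with fenbendazole higher and 9 with it lower, of 35, against 17% and 15.5% of all tested genes.

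The departure of DMSO 11 went with the base composition of the transcripts. Across the 35 genes, the log2 ratio of DMSO 11 to the mean of DMSO 10 and 12 and the GC content of the longest GENCODE v29 transcript had a Pearson's r of 0.89 and a Spearman's rho of 0.86, and over 16975 genes 0.76 and 0.80. These describe genes, which are not independent replicates and share the same 3 libraries. SLC16A3, with 62.7% GC, was at a log2 ratio of 1.59 and PFKL, with 64.1%, at 1.28. HIF1A, with 36.4% GC, was at -0.76.

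Offsets for GC content and length within each library gave 8 of 35 calls with all 6 libraries, against 21% of all genes. The log2 fold changes of these genes were -0.59 for PGM1, -0.41 for GPI, -0.31 for TXNIP, -0.47 for SLC16A3, -0.54 for PDK2, -0.23 for HIF1A, 0.72 for PFKFB4 and 0.22 for HK1. With the same offsets PFKL stood at -0.08, GAPDH at 0.06, SLC2A1 at -0.23 and VEGFA at -0.09 (adjusted p = 0.394 for VEGFA), none past the threshold. The offsets without DMSO 11 gave 12 of 35 calls, against 25.2% of all genes, and limma-voom with library quality weights, which gives DMSO 11 little weight, 12 of 35, against 26.4%. Of the genes that set fructose-2,6-bisphosphate, PFKFB3 passed in both (adjusted p = 0.0340 and 0.0192). TIGAR and PFKFB4 passed with the weights (adjusted p = 0.0175 and 0.0486), and PFKFB2 passed in neither. Another scaling (DESeq2's size factors or the upper quartile), no filter on low counts, a filter of 1 CPM, limma-voom without weights and limma on log2 FPKM with a pseudocount of 1 or 0.1 gave 0 calls among the members, where 4.04%, 3.95%, 1.72%, 5.7%, 4.05%, 4.7% and 4.46% of all genes passed. The part of GC content in the fold changes of all 6 libraries was not tested beyond these offsets.

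**Figure D5:**
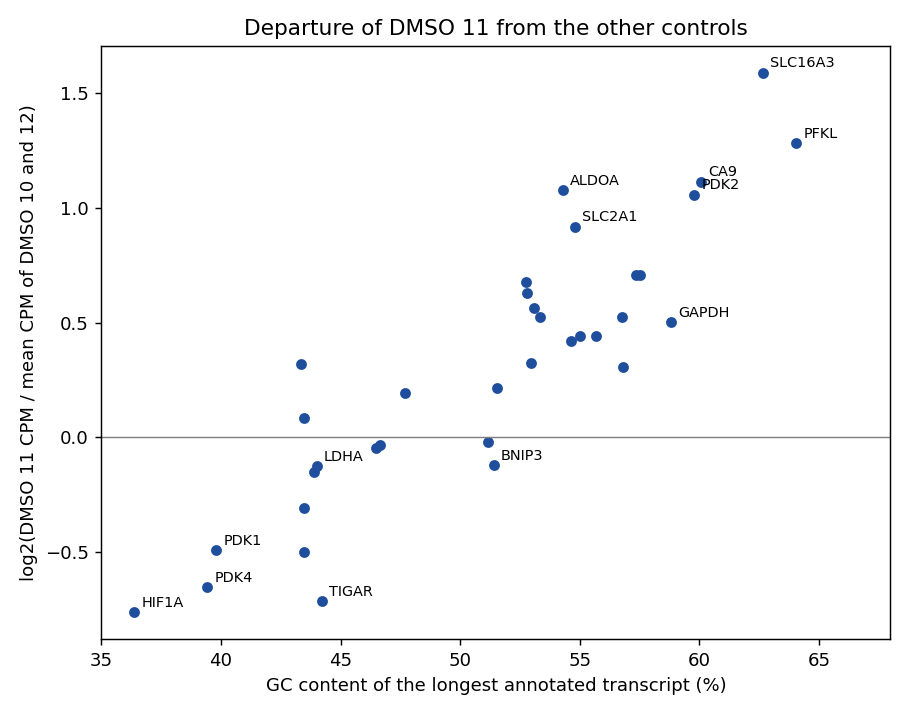
Log2 ratio of DMSO 11 to the mean CPM of DMSO 10 and 12 against the GC content of the longest annotated transcript (%), one point per gene for 35 genes. The ratio runs from -0.76 at HIF1A to 1.59 at SLC16A3.

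Other genes of glucose metabolism and the response to low oxygen were followed in 133 genes of 7 lists, of which 109 were tested and 4 passed, 3.67%, near the 4.03% of all genes. CA12, a membrane carbonic anhydrase, fell from 625 ± 34.7 to 384 ± 13.6 CPM (0.615-fold, log2 -0.70 ± 0.110, adjusted p = 0.0151), the 1 lower call among 26 other hypoxia targets, whose median log2 fold change was -0.14. SLC2A12, the transporter GLUT12, fell from 7.71 ± 0.411 to 2.52 ± 0.426 CPM (0.328-fold, log2 -1.61 ± 0.237, adjusted p = 0.0120), the 1 call among 21 other isoforms and partners of the pathway. UAP1, which makes UDP-GlcNAc in the hexosamine branch, rose from 31.3 ± 5.76 to 69.5 ± 1.85 CPM (2.22-fold, log2 1.15 ± 0.171, adjusted p = 0.0124), the 1 call among 11 genes of gluconeogenesis and side branches.

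The log2 fold changes of these genes kept their sign when each library was left out in turn, from -1.73 to -1.49 for SLC2A12, 1.01 to 1.24 for UAP1 and -0.74 to -0.67 for CA12, but some of the smaller fits no longer called them. Without fenbendazole 7, 8 or 9, the adjusted p of SLC2A12 was 0.0929, 0.0852 and 0.0648, and that of UAP1 0.0846, 0.0760 and 0.0915. For CA12 it was 0.134, 0.116 and 0.120, and 0.0756 without DMSO 10.

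With all 6 libraries no gene passed in the other 4 lists, of 12 pentose phosphate, 19 glycogen, 9 oxygen-sensing and 11 glucose-sensing genes. Their median log2 fold changes in that fit were -0.14, -0.16, -0.37 and -0.13, and the values that follow are from it unless stated. Among the oxygen-sensing genes the smallest p belonged to CITED2, which limits HIF-1 (-1.08 ± 0.242, adjusted p = 0.0564), ARNT2, a partner of HIF subunits (-0.62), and HIF1AN, the asparaginyl hydroxylase of HIF (-0.38). Among the glucose-sensing genes they were TXN, the thioredoxin that TXNIP binds (0.45), PPARGC1A, a coactivator of mitochondrial genes (-1.16), and TXN2, the mitochondrial thioredoxin (-0.64). Without DMSO 11, TXN, PPARGC1A and TXN2 stood at 0.39, -1.41 and -0.41 (adjusted p = 0.00164, 0.00340 and 0.0510). Of the pentose phosphate genes, PRPS1, which makes phosphoribosyl pyrophosphate, stood at 0.42, and PGLS and H6PD of the oxidative branch at -1.33 and -0.74. Of the glycogen genes, the synthase GYS1 stood at -0.74, PPP1R3B, which brings a phosphatase to glycogen, at 0.40, and the primer GYG2 at -0.81. Without DMSO 11, GYS1, PPP1R3B and GYG2 stood at -0.46, 0.41 and -0.73 (adjusted p = 0.0114, 0.00484 and 0.0480). Without DMSO 11, 36 of 112 tested genes of the 7 lists passed, 32.1% against 22.3% of all genes. Of the 36 genes 11 were higher and 25 lower, where 13.1% of all genes were called higher and 9.23% lower. Of the 26 other hypoxia targets 11 were then lower, beside the same 9.23% of all genes, in a fit whose p-values can be too small.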

How the data were processed

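Poly(A) RNA of SKOV3 cells was compared between 3 fenbendazole and 3 DMSO libraries. Per the file headers, the authors deposited read counts per gene (whole numbers, not normalised) and FPKM for each library. The submitters' processing notes name CASAVA 1.8, HISAT2 2.1.0, StringTie 1.3.4b, edgeR and GRCh38. The sources used here give neither the counting program and its strand setting nor the annotation release. With 13170775 to 22128930 counts per library, 3 counts equal 0.136 to 0.228 CPM.

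Counts were tested here with edgeR 4.0.16 in R 4.3.3 (quasi-likelihood F test, robust dispersions, TMM, filterByExpr), with Benjamini-Hochberg adjustment over 17363 genes and a threshold of 0.05. Standard errors come from the F statistic. Levels are compared between libraries in CPM and between genes in the deposited FPKM. Alternatives used DESeq2 1.42.0, limma 3.58.1 (voom, or log2 FPKM where the mean FPKM was at least 1, pseudocount 1 or 0.1), other scalings and filters, each library left out, and offsets for GC content and length of GENCODE v29 transcripts, known for 97.8% of tested genes. The edgeR fit was tried on simulated counts. Isoform shares had an exact permutation test. No replicate pair matched within counting noise (chi-square over its degrees of freedom 5.34 or more).

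The members and lists were chosen with earlier results of these data known. Members are named by step, with full statistics for those past the threshold with or without DMSO 11, for SLC2A1, HK2, GAPDH, LDHA, TXNIP, HIF1A, VEGFA and CA9, and for the 6 smallest p. Related genes are named if called, otherwise up to 3 per list with the smallest p; a called gene of these lists is not reported here. Promoter windows come from RefSeq (GRCh38.p14).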

Additional observations from a re-analysis of the deposited data

How the results depend on the processing

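No paired analysis was possible because the replicate numbers of the groups are not shared. Against 0 members, 700 genes overall and 4 genes of the related lists past the threshold, DESeq2 gave 1, 1963 and 16, quality weights 12, 4587 and 37, GC and length offsets 8, 3641 and 37, these offsets without DMSO 11 12, 4449 and 38, and an adjusted p of 0.01 gave 0, 210 and 1. Leaving out 1 library gave 0 to 11 members, 147 to 3946 genes and 1 to 36 related genes, the highest each time without DMSO 11. Upper-quartile scaling moved the split of 540 higher and 160 lower genes to 455 and 231. HIF1A turned from 0.08 to -0.23 with the offsets and to -0.20 with offsets and without DMSO 11, past the threshold in both; the cause was not tested. Of members past the threshold in neither fit, 7 changed sign without DMSO 11, 7 with offsets, 7 with both and 4 without DMSO 10, and 24 of 35 members kept their sign without each library in turn. Of 11 members called without DMSO 11, 10 were also called with offsets in the same 5 libraries, and PDK1 was not (-0.16, adjusted p = 0.114). Both fits use the same libraries, so this overlap is not separate support. With the offsets and all 6 libraries, ALDOA, PGAM1, LDHB, PDK1, PDK3 and BNIP3 of the 11 were not called. With the quality weights, HK1, PGAM1 and SLC16A3 of the 11 were not called. Without DMSO 11, the intervals of the low genes ALDOC, PFKFB4 and TIGAR still reached past a 2-fold difference, while that of CA9, also low, did not. The part of depth and replicate number in these intervals was not tested.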
